A study of Homo sapiens with 26 samples.

Results

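The G1 cyclins, their cyclin-dependent kinases (CDKs) and the CDK inhibitors were followed as a group of 10 genes chosen by symbol among 26485 gene symbols, namely the D-type cyclins CCND1, CCND2 and CCND3, the E-type cyclins CCNE1 and CCNE2, the kinases CDK4 and CDK6, and the inhibitors CDKN1A (p21), CDKN1B (p27) and CDKN2B (p15). All 10 symbols were found in each of the 5 expression tables.

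RNA-seq libraries (26 in 11 groups) came from 3 established lines of human esophageal squamous carcinoma (ESCC), in which BRDT, a BET protein that reads acetylated histones and is normally restricted to the testis, or TP63, a transcription factor of squamous epithelium, was perturbed. KYSE180 cells received control siRNA (siCont, 3 libraries) or siBRDT (3 libraries) in 1 experiment, called the BRDT experiment here, and siCont (2) or siTP63 (2) in another, the TP63 experiment. TE6 cells received siCont (2), siBRDT (2) or siTP63 (2), and KYSE150 cells siCont (2) or siTP63 (2), each siRNA for 48 h. KYSE150 cells were also given a BRDT expression plasmid (BRDT-OE, 3) or the empty pCDNA5/TO vector (cont, 3), for which no time was given. No deletion or agent was shared by all groups, and every group is a whole-culture average of a transfected line. Which siRNA was used in which library, and whether libraries of a group came from separate cultures, is not stated, so the p-values measure only the spread between these libraries, which may be technical.

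In G1, D-type cyclins bind CDK4 and CDK6 and E-type cyclins bind CDK2, and these kinases phosphorylate the retinoblastoma protein, which releases E2F transcription factors that turn on genes of DNA synthesis. p15 blocks CDK4 and CDK6, whereas p21 and p27 hold back cyclin E bound to CDK2 and also take part in the assembly of cyclin D complexes. CCND1 and CDK6 are often amplified in esophageal squamous carcinoma, CDKN2B is often lost with its neighbour CDKN2A, and CDKN1A is the classic target of p53 that p63 can also bind.

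The siRNAs listed for the study are shown because they define the perturbations. Each 19-base strand is given 5′ to 3′ with the letters of the targeted mRNA.
Non-targeting siRNA #5 (no site): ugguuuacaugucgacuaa
BRDT #2 (coding exon 2, chr1:91962840-91962858): caaaucaacuucaguaucu
BRDT #3 (coding exon 7, chr1:91978170-91978188): gaaaauggauaaccaagaa
BRDT #4 (coding exon 8, chr1:91979663-91979681): guagagagaacacuaauga
BRDT #18 (coding exon 10, chr1:91981008-91981026): gagauaaacuugggcgagu
TP63 #5 (coding exon 13, chr3:189890812-189890830): caucaugucuggacuauuu
TP63 #8 (coding exon 7, chr3:189867849-189867867): cgacagucuuguacaauuu
Coordinates are in hg38. TP63 #8 matched 11 of 12 coding transcripts of TP63 and TP63 #5 matched 5, while the 4 BRDT siRNAs matched 15, 8, 8 and 5 of 20 coding transcripts of BRDT. None of the 7 sequences had an exact 19-base match in a transcript of the 10 genes, and the non-targeting sequence had none in any annotated transcript.

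The 250 bases before the transcription start in the RefSeq promoter table are given for CDK4, CDK6, CDKN1A and CDKN1B, which were chosen after their values were seen because they carry calls that differ between lines, from RefSeq (GRCh38.p14), 5′ to 3′ on the strand of the gene. CCND3 and CCNE1 also had windows and calls that differ between lines, and their windows are not printed. Windows were found for 7 of the 10 genes (10 windows of 35116 in all). CCND1, CCND2 and CCNE2 had no entry. Gene spans printed with the results cover all annotated transcripts of a gene in GENCODE, so that a window can lie inside its span. Capitals mark CACGTG (the E-box) in CDK4, GGGCGG or its reverse complement CCGCCC (the GC box) in CDK6 and CDKN1A, and CCAAT in CDKN1B.
CDK4: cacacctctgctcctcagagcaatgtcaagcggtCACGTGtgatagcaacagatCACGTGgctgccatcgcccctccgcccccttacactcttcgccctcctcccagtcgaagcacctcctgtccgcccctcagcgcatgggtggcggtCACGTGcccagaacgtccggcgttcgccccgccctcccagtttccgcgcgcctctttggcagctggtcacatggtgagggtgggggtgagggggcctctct
CDK6: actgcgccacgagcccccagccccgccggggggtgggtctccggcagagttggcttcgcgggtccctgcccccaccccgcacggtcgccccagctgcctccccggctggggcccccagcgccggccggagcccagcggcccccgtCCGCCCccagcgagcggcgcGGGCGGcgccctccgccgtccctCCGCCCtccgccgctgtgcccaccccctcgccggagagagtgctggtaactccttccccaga
CDKN1A: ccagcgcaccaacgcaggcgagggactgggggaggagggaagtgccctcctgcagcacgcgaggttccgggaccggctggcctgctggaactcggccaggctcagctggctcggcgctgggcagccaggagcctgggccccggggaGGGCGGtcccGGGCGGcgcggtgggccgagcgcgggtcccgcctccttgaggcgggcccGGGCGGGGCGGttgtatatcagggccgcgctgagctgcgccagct
CDKN1B: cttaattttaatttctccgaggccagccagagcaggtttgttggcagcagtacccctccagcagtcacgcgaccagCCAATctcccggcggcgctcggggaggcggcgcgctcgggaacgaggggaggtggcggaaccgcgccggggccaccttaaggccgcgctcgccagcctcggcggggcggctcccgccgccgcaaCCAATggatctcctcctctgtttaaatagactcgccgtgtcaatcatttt
The windows lie at chr12:57752311-57752560 (minus strand, CDK4), chr7:92836574-92836823 (minus strand, CDK6), chr6:36678464-36678713 (plus strand, CDKN1A) and chr12:12717118-12717367 (plus strand, CDKN1B). CDK4 held 3 CACGTG motifs, and 6.34% of all windows held at least 1 on either strand. The GC box was found 3 times in the CDK6 window shown and 0 times in the second CDK6 window (chr7:92833960-92834209) and 4 times in that of CDKN1A, and 42.6% of all windows held it. It was also found 3 times in CDK4 and 1 time in CDKN1B, where it is not marked. CDKN1B held 2 CCAAT motifs, against a share of 32% of windows with at least 1. The consensus decamer bound by the p53 family, searched on both strands, was in none of the 10 windows and in 5.57% of all windows. The E2F motifs TTTGGCGC, TTTCCCGC and TTTCGCGC were likewise in none of the 10 windows, and in 0.55%, 1.39% and 0.439% of all windows. These are letter matches in short windows and say nothing of binding.

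The libraries held 7582089 to 19372441 reads, which were recovered as whole numbers from the deposited values. BRDT fell under siBRDT in KYSE180 (mean normalised read count 1065 to 159, log2 fold change −2.75) and in TE6 (241 to 50.8, −2.23). It rose from 10.2 to 16447 in KYSE150 BRDT-OE. TP63 fell under siTP63 in KYSE180 (2804 to 859) and in TE6 (2690 to 123). In KYSE150 it read 695 and 729 under siCont and 170 and 114 under siTP63, a log2 fold change of −2.34 that did not pass the test (adjusted p = 0.0818). TP63 also fell under siBRDT, by 0.58 in KYSE180 (9900 to 6624) and by 1.15 in TE6 (2690 to 1214) on the log2 scale. Summed per-length levels of 8 squamous markers ranged from 420 to 4097 RPKM (reads scaled to transcript length and to the library total) over the libraries, those of 3 leukocyte markers from 0 to 1.36, of 3 endothelial markers from 0.105 to 2.73 of 4 fibroblast markers from 0.586 to 20.5, and of 2 simple epithelial keratins (KRT8 and KRT18) from 588 to 4890. The keratin sum was 883 to 988 RPKM in siCont and 1375 to 1406 in siBRDT of TE6, 1250 to 1584 in siCont and 982 to 1179 in siTP63 of KYSE180, and 3407 to 4890 in siCont and 2058 to 2933 in siTP63 of KYSE150. The squamous markers were KRT5, KRT14, KRT6A, TP63, SFN, PERP, DSG3 and DSC3. TP63 is itself the target of siTP63, and the study reports KRT14 as lowered by either knockdown in KYSE180. A fall of the sum is therefore in part built in. The squamous sum moved with the knockdowns. It was 3592 to 3916 RPKM in siCont and 2194 to 2343 in siBRDT of KYSE180, 3875 to 4097 in siCont and 2191 to 2242 in siTP63 of the other KYSE180 experiment, 2495 to 2541 in siCont, 1213 to 1329 in siBRDT and 482 to 514 in siTP63 of TE6, and 1064 to 1404 in siCont and 420 to 469 in siTP63 of KYSE150. The part of either sum in the results below was not tested, and in whole cultures fewer cells of a kind and less RNA per cell cannot be told apart.

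Over the 6 comparisons of treated with control libraries, between 0 and 6 of the G1 genes were called. A gene was called when its limma adjusted p was under 0.05 and its change, on log2(value + 1), reached 0.5 in either direction, and it was tested where its mean normalised read count was at least 10. In KYSE180 siBRDT, 8 of the 10 genes were tested, CCNE2 rose and CDKN1A fell, so that 2 were called, whereas 30.3% of all 13589 genes tested were called. In TE6 siBRDT, CDK6 fell and was the 1 gene called of 9 tested (background 33.7%). In KYSE180 siTP63, CCNE2 and CDKN1B rose and CCND3, CCNE1, CDK4 and CDK6 fell, 6 of 8 tested (background 49.3%). In TE6 siTP63, CDK6 and CDKN1B fell, 2 of 9 tested (background 38.9%). In KYSE150 BRDT-OE, CCND1, CCNE1, CCNE2 and CDK6 rose and CDKN1B and CDKN2B fell, 6 of 10 tested (background 26.5%). Median log2 fold changes of the genes tested were −0.04, 0.02, −0.36, −0.07 and 0.41 in these comparisons in turn, beside −0.01, −0.04, 0.00, −0.01 and 0.02 over every gene tested.

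In KYSE150 siTP63 none of the 10 genes was called by limma, and none of 12335 genes was (background 0%). At an unadjusted p under 0.05, 3 of the 10 genes (CCND2, CDK6 and CDKN2B) and 17.8% of all genes passed. edgeR called 0 genes, and DESeq2 called 201 that rose and 261 that fell, among them CCND2 and CDK6, both lower. With crossed replicate numbers as a block, a setting added after seeing the data, limma called 1626 that rose and 1774 that fell. The labels give no such pairing. In simulated data with the spread of these libraries, 200 of 12232 genes were changed by 1 on the log2 scale. Of these limma called only 8.5%, against 93% to 100% in the other comparisons. The share of changed genes was set in advance and may differ from the data, so that 8.5% holds for that setting only. The values of KYSE150 siTP63 are given below as values.

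**Figure D1:**
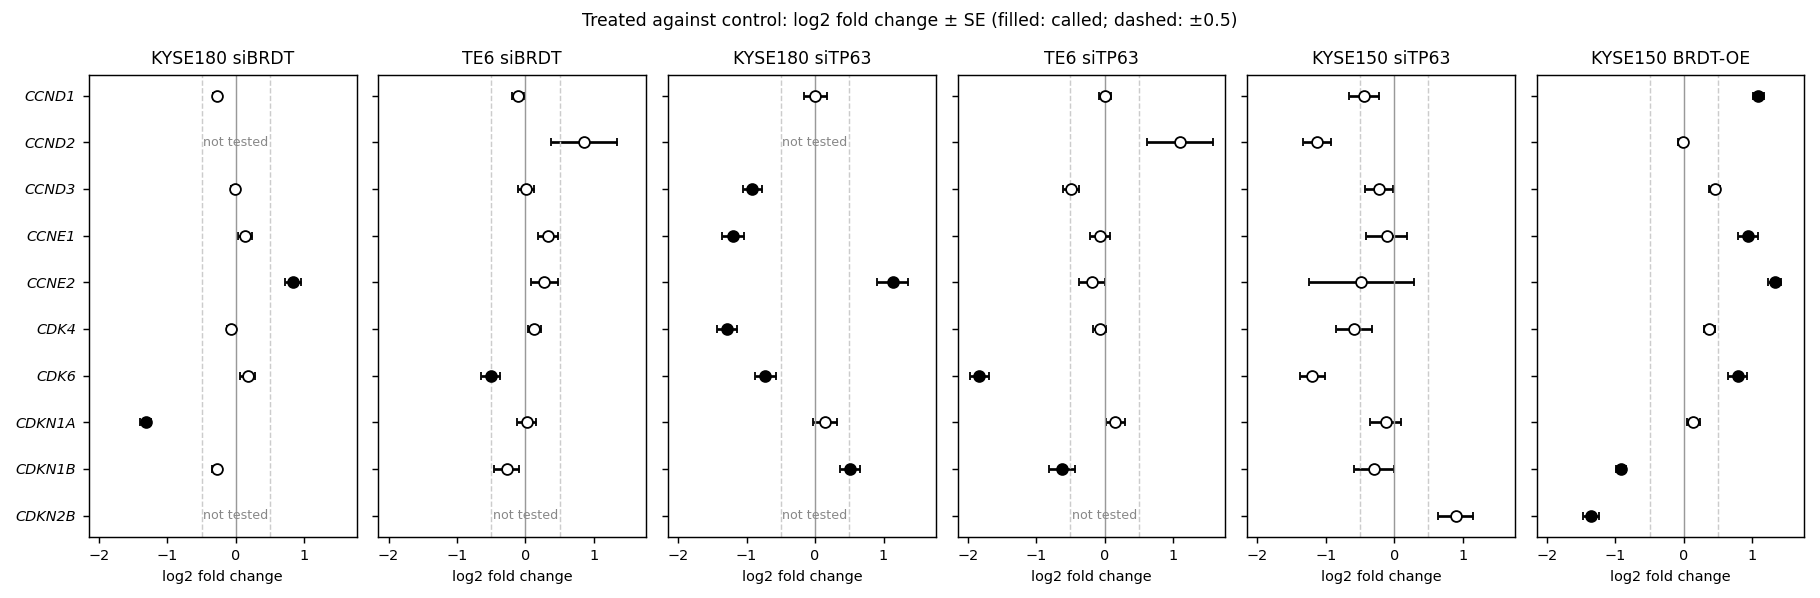
Log2 fold change (x axis, treated minus control, error bars SE from limma) of each of the 10 genes (y axis) in the 6 comparisons, with filled points for called genes, open points for genes not called and dashed lines at 0.5 in size. CDK6 lies left of 0 in all 3 siTP63 panels, at −0.72, −1.83 and −1.19, and CDKN1A has its lowest value, −1.32, in KYSE180 siBRDT.

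Among the D-type cyclins, which carry growth signals into G1, the lines differed in the gene they used. Per length, CCND1 (chr11:69641156-69654474) supplied 73.4% ± 0.699 (SD, n = 3) of the summed RPKM of the 3 genes in siCont libraries of the KYSE180 BRDT experiment, 65.3% ± 3.36 (n = 2) in those of the TP63 experiment and 84.9% ± 0.0293 (n = 2) in TE6 siCont. CCND3 (chr6:41934934-42050357) supplied nearly all of the rest in these lines. In KYSE150 siCont the shares were 39.6% for CCND1, 35.9% for CCND2 (chr12:4269771-4305353) and 24.5% for CCND3.

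CCND2 was close to a feature of KYSE150 alone. It had 0 to 3 reads in the 10 KYSE180 libraries, 10 to 31 reads in the 6 TE6 libraries and 2077 to 8092 reads in the 10 KYSE150 libraries. Its mean level was 56.5 RPKM in KYSE150 siCont and 69.98 RPKM in KYSE150 cont, beside 0.148 RPKM in TE6 siCont. The tables were normalised separately, so that these levels are set beside each other without a test.

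**Figure D2:**
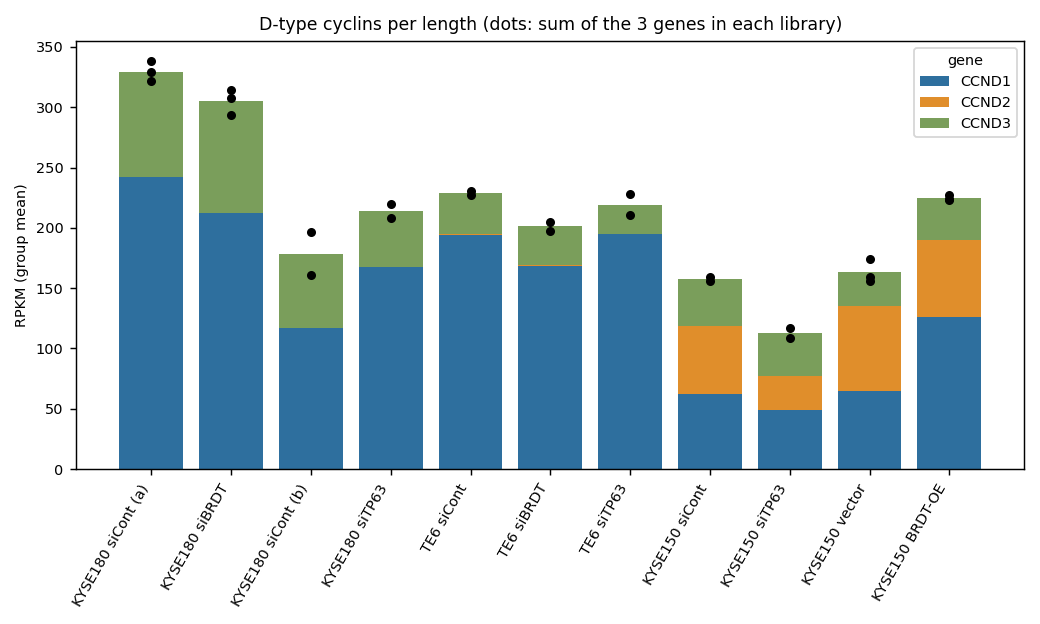
Stacked bars give the group mean RPKM (y axis, from 0) of CCND1, CCND2 and CCND3 in the 11 groups (x axis, with the BRDT experiment of KYSE180 as a and the TP63 experiment as b), and dots give the sum of the 3 genes in each library. CCND2 is visible only in the 4 KYSE150 groups, where its bar is smallest in siTP63, and the CCND1 bar is highest in KYSE180 siCont of the BRDT experiment, at 242 RPKM.

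CCND1 moved upward in KYSE150 BRDT-OE. Its normalised read counts were 3946, 4551 and 3837 in cont and 8467, 8862 and 8803 in BRDT-OE. Every BRDT-OE library was above every cont library. The gene rose 2.12-fold (log2 fold change 1.09 ± 0.08 SE, adjusted p = 5.70e-06). Its share of the D-type cyclin RPKM went from 39.8% ± 2.11 to 56.2% ± 1.07 (SD, n = 3 each), while that of CCND2 went from 43.0% ± 0.998 to 28.2% ± 1.32.

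The reverse perturbation gave a small difference. In KYSE180, CCND1 read 11322, 11129 and 11696 under siCont and 8945, 9734 and 9575 under siBRDT, without overlap. The log2 fold change of −0.27 ± 0.06 had an adjusted p of 0.00126 but was under the size limit. In TE6, 9402 and 9188 under siCont stood beside 8794 and 8509 under siBRDT (−0.10, adjusted p = 0.346).

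Under siTP63, CCND1 gave no call in any line. In TE6 its log2 fold change was 0.01 ± 0.09, with 9122 and 9615 in the siTP63 libraries. In KYSE180 it was 0.00 ± 0.17, because the siCont libraries read 9735 and 7109 and the siTP63 libraries 8283 and 8398, inside that range. That value depended on the scaling. With all libraries set to equal totals the median of all genes moved to 0.53, and CCND1 had a log2 fold change of 0.53 and was called. In KYSE150 the siCont libraries read 4508 and 3938 and the siTP63 libraries 2870 and 3350, all lower (−0.44, adjusted p = 0.351).

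CCND2 read 6167 and 5553 in KYSE150 siCont and 2585 and 2764 in siTP63. Both siTP63 libraries were far below both controls, and the log2 fold change was −1.13 ± 0.21 (adjusted p = 0.112). In BRDT-OE its values of 6957, 6387 and 6748 overlapped those of cont, 6459, 7017 and 6875 (−0.02, adjusted p = 0.838). In TE6 it was near the limit of detection, with normalised read counts of 8.79 and 12.9 in siCont, 33.4 and 11.9 in siBRDT and 18.6 and 31.1 in siTP63, and neither difference passed the test (adjusted p = 0.166 and 0.0736).

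CCND3 fell in KYSE180 siTP63. The siCont libraries read 2223 and 2003 and the siTP63 libraries 1133 and 1103, with no overlap. The fall was 1.89-fold (log2 fold change −0.92 ± 0.14, adjusted p = 4.11e-06), and with equal library totals it was −0.39 and no longer called. In TE6 the gene went from 793 and 776 to 534 and 580, −0.49 ± 0.12, adjusted p = 0.00331, a value just under the size limit. In KYSE150 siTP63 the difference was smaller (−0.22, adjusted p = 0.607).

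Under siBRDT, CCND3 had log2 fold changes of −0.01 in KYSE180 and 0.00 in TE6, with overlapping groups in both. In BRDT-OE it read 1137, 1185 and 1142 against 770, 859 and 909 in cont, all higher (0.45 ± 0.08, adjusted p = 9.84e-04), again under the size limit.

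The E-type cyclins, which bring CDK2 into play late in G1, did not move together. CCNE2 rose in 3 comparisons, and CCNE1 (chr19:29811991-29824312) rose in 1 of these and fell in another. Per length CCNE1 made up 75.2% ± 1.13 of the summed E-type RPKM in siCont of the KYSE180 BRDT experiment and 71.8% ± 4.12 in TE6 siCont, and 21.3% ± 1.47 in KYSE150 cont. In KYSE150 siCont it was 50.2% ± 25.5 (SD, n = 2), too scattered to place.

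In KYSE180 siTP63 the pair moved in opposite directions. CCNE1 read 511 and 427 in siCont and 199 and 209 in siTP63, and fell 2.29-fold (log2 fold change −1.19 ± 0.16, adjusted p = 7.10e-07). CCNE2 read 51.9 and 50.3 in siCont and 98.2 and 131 in siTP63, and rose 2.20-fold (1.14 ± 0.23, adjusted p = 1.53e-04). Neither gene overlapped between groups. The CCNE1 share of the E-type RPKM thereby went from 92.6% ± 0.720 to 71.0% ± 3.47 (SD, n = 2 each).

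CCNE2 also rose in KYSE180 siBRDT. It read 79.6, 82.4 and 81.4 in siCont and 142, 152 and 145 in siBRDT. All 3 treated libraries were higher (log2 fold change 0.84 ± 0.12, adjusted p = 2.08e-05), and these values rest on 65 to 166 reads per library. CCNE1, with 185, 187 and 169 against 200, 191 and 200, gave 0.13 (adjusted p = 0.267).

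Both E-type cyclins rose in KYSE150 BRDT-OE. CCNE2 went from 233, 251 and 223 in cont to 617, 562 and 596, a 2.51-fold rise (log2 fold change 1.33 ± 0.09, adjusted p = 4.36e-06). CCNE1 went from 42.5, 49.0 and 48.2 to 88.6, 89.6 and 91.4 (0.94 ± 0.15, adjusted p = 5.11e-04). The lowest BRDT-OE library lay well above the highest cont library for either gene. CCNE2 was therefore higher both when BRDT was reduced in KYSE180 and when it was added in KYSE150.

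In TE6 neither E-type cyclin was called. CCNE1 read 209 and 191 in siCont, 243 and 262 in siBRDT (0.33, adjusted p = 0.0772) and 197 and 185 in siTP63 (−0.07, adjusted p = 0.723). CCNE2 read 96.7 and 118 in siCont, 144 and 117 in siBRDT and 86.3 and 102 in siTP63, with overlap in both comparisons. In KYSE150 siTP63 CCNE2 was scattered, at 41.6 and 173 in siCont and 98.9 and 37.3 in siTP63, and no direction could be read from it. The CCNE2 exons overlap those of INTS8 on the opposite strand, and the library kit does not mark strand.

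CDK6, a kinase partner of the D-type cyclins (chr7:92604921-92836573), was lower under siTP63 by more than 0.5 on the log2 scale in each of the 3 lines. In TE6 it read 622 and 687 in siCont and 177 and 189 in siTP63, a 3.55-fold fall (log2 fold change −1.83 ± 0.14, adjusted p = 8.72e-07). In KYSE180 it read 1112 and 915 in siCont and 581 and 641 in siTP63 (−0.72 ± 0.15, adjusted p = 1.62e-04). In KYSE150 it read 1106 and 1205 in siCont and 499 and 508 in siTP63 (−1.19 ± 0.18, adjusted p = 0.111). The groups were apart in each line. In KYSE150 siTP63 the groups were apart for 6 of the 10 genes, although none was called. How many of all genes were apart was not counted. The TE6 fall was called under all planned and added alternatives, with log2 fold changes of −1.44 to −1.90, whereas the KYSE180 fall was −0.20 and not called with equal library totals.

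Under siBRDT CDK6 fell in TE6 and not in KYSE180. In TE6 the siBRDT libraries read 515 and 410, below both siCont libraries, a log2 fold change of −0.51 ± 0.14 (adjusted p = 0.0106) that was barely past the size limit. It was −0.41 with upper-quartile scaling, −0.49 in edgeR, −0.48 in DESeq2 and −0.07 once a trend with transcript length and GC content was removed, and was called in none of these. In KYSE180 the siCont libraries read 1665, 1815 and 2044 and the siBRDT libraries 1696, 2119 and 2469, with wide overlap (0.17, adjusted p = 0.185).

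CDK6 rose in KYSE150 BRDT-OE. The cont libraries were spread over 2291, 2781 and 1762, and the BRDT-OE libraries stood close together at 3847, 3945 and 3794. The lowest of these was above the highest control (log2 fold change 0.79 ± 0.13, adjusted p = 7.54e-04).

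CDK4, the other kinase partner of the D-type cyclins (chr12:57747727-57756013), was the more abundant of the pair per length, with 89.3% to 99.0% of the summed CDK4 and CDK6 RPKM as group means. Its mean level in siCont was 142 RPKM in the BRDT experiment and 233 RPKM in the TP63 experiment of KYSE180, 145 and 155 RPKM in the 2 TE6 libraries and 383 RPKM in KYSE150, where the cont libraries had 191 ± 17.6 RPKM (SD, n = 3).

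In KYSE180 siTP63 CDK4 fell. It read 7328 and 7377 in siCont and 3194 and 2829 in siTP63, 2.45-fold lower (log2 fold change −1.29 ± 0.15, adjusted p = 5.38e-08). With equal library totals, CDK4 was −0.77, CCNE1 −0.67 and CDKN1B 1.04 in this comparison, and each was still called. No such change was seen in TE6, with 3053 and 3257 in siCont and 3104 and 2887 in siTP63 (−0.07, adjusted p = 0.551). In KYSE150 it read 12127 and 10690 in siCont and 6709 and 8571 in siTP63, lower in both (−0.59 ± 0.26, adjusted p = 0.315).

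CDK4 was not called in the BRDT comparisons. In KYSE180 siBRDT the log2 fold change was −0.07 and in TE6 siBRDT 0.13. In KYSE150 BRDT-OE it went from 4813, 5207 and 5920 to 6716, 7058 and 6785, all higher (0.37 ± 0.08, adjusted p = 0.00377), under the size limit. Exons of CDK4 overlap those of TSPAN31 on the opposite strand, as do those of CDK6 with CDK6-AS1, CDKN1A with DINOL, CCND1 with LTO1, CCND2 with CCND2-AS1 and CCND3 with ENSG00000223946. Reads of such partners cannot be told apart with a kit that does not mark strand.

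**Figure D3:**
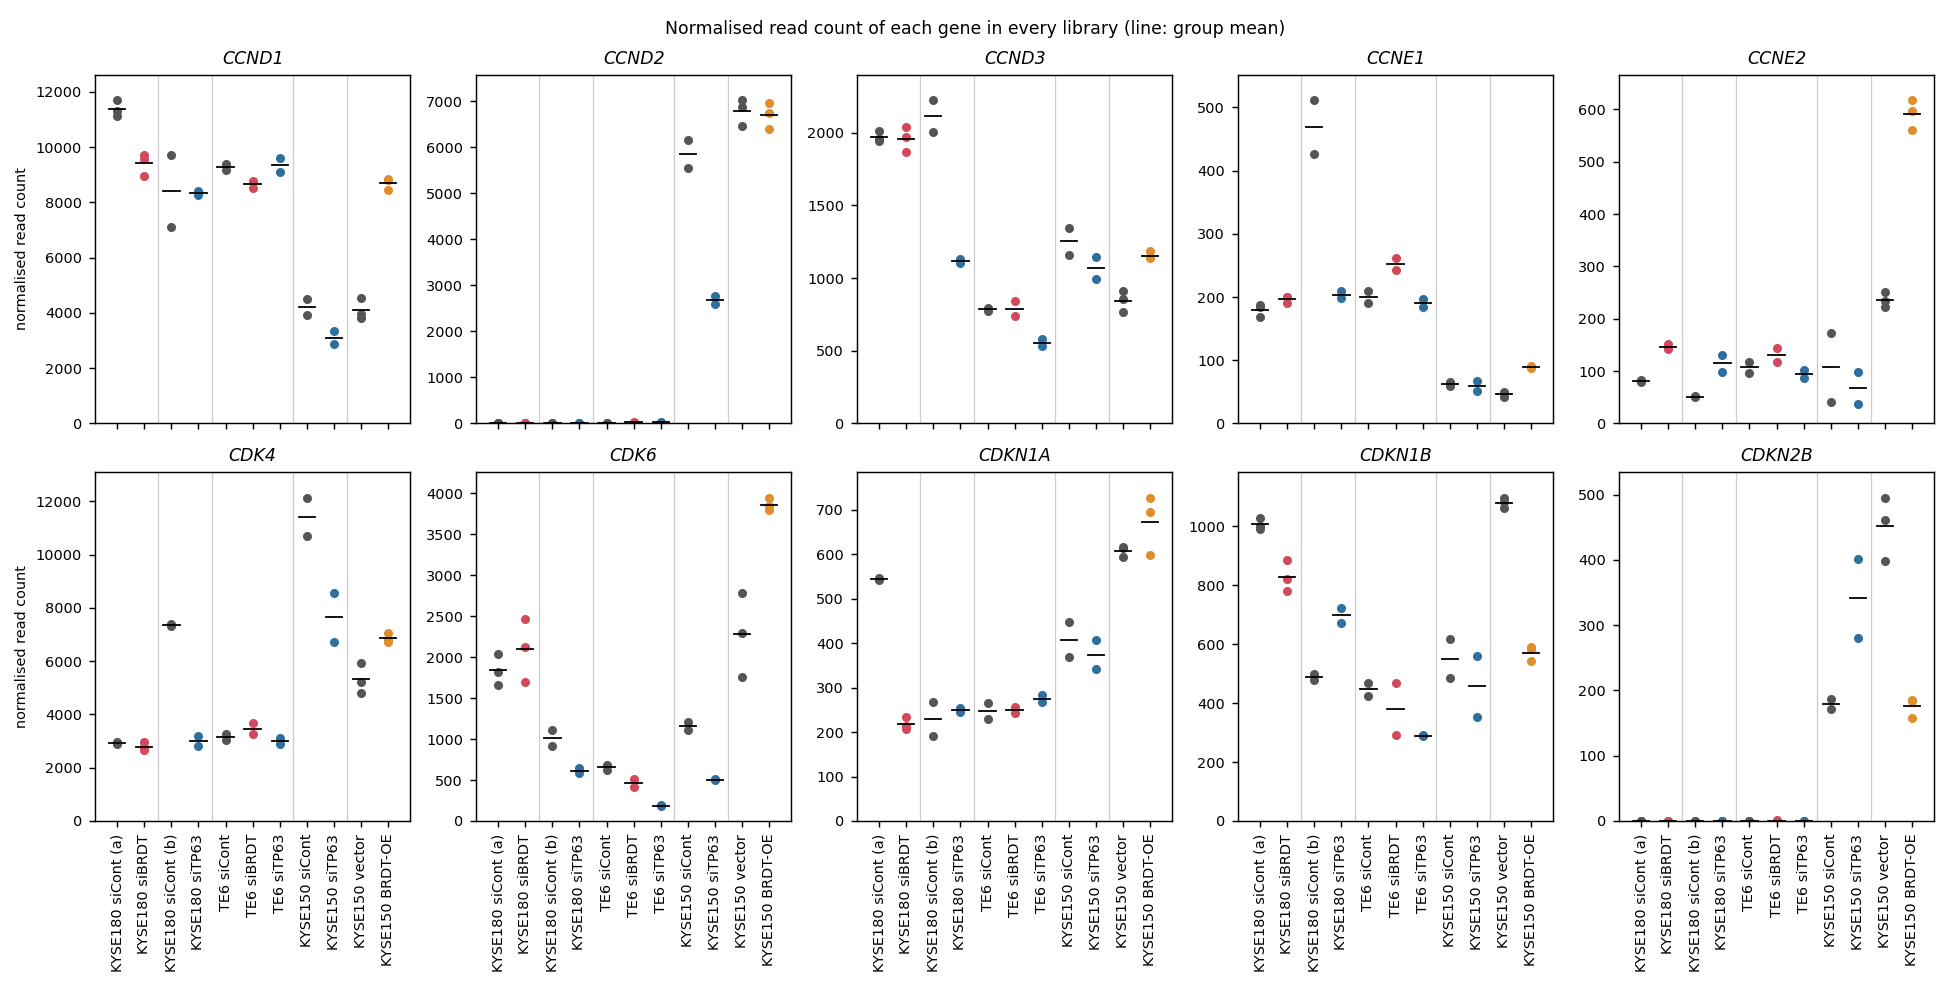
Normalised read count (y axis of each panel, linear and from 0) of the 10 genes in every library of the 11 groups (x axis), with points for libraries, a line for the group mean and vertical lines between separately normalised tables. The CDKN1A values of KYSE180 siCont in the BRDT experiment (541 to 545) sit far above the siBRDT libraries (206 to 234), and the CDKN2B points are at or near 0 outside KYSE150.

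CDKN1A, which encodes p21 (chr6:36676460-36687337), was the inhibitor most clearly lower under siBRDT in KYSE180. The siCont libraries read 541, 545 and 545 and the siBRDT libraries 214, 206 and 234. The groups were far apart, and the gene fell 2.49-fold (log2 fold change −1.32 ± 0.08, adjusted p = 7.84e-09). In TE6 the siCont libraries read 265 and 230 and the siBRDT libraries 244 and 257, within the control range (0.02 ± 0.14, adjusted p = 0.918).

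CDKN1A was not called in any other comparison. Under siTP63 it gave 0.14 in KYSE180, where siCont read 190 and 268 and siTP63 245 and 253. In TE6 it gave 0.16 and in KYSE150 −0.13. In BRDT-OE it read 598, 726 and 695 against 617, 614 and 593 (0.14, adjusted p = 0.209). With equal library totals the KYSE180 siTP63 value was 0.66 and was called.

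The level of CDKN1A in KYSE180 controls was not the same in the 2 experiments. It was 23.1 ± 0.242 RPKM (SD, n = 3) in siCont of the BRDT experiment and 6.42 ± 1.73 RPKM (n = 2) in siCont of the TP63 experiment. The siBRDT libraries, at 9.63, 9.25 and 10.7 RPKM, lay above the siCont libraries of the other experiment, at 5.19 and 7.64 RPKM. CDKN1B showed the same, with 37.6 ± 0.759 and 11.9 ± 0.741 RPKM in the 2 sets of controls. TP63 itself had mean normalised read counts of 9900 and 2804 in these sets, from separately normalised tables. CDK4 and CCNE1 differed the other way, with CDK4 at 142 and 233 RPKM and CCNE1 at 8.30 and 14.2 RPKM. For CDK4 and CCNE1 the siTP63 libraries (142 and 132 RPKM, and 8.42 and 9.32 RPKM) were close to the controls of the BRDT experiment. What differed between the experiments besides the siRNA is not given, and its part in these results was not tested.

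CDKN1B, which encodes p27 (chr12:12685498-12722369), moved in opposite directions under siTP63 in KYSE180 and TE6. In KYSE180 it read 477 and 498 in siCont and 671 and 724 in siTP63, higher in both (log2 fold change 0.52 ± 0.14, adjusted p = 0.00363). In TE6 it read 425 and 468 in siCont and 287 and 291 in siTP63, lower in both (−0.62 ± 0.18, adjusted p = 0.0135). Both calls were lost when single libraries were left out. Without the second siTP63 library the KYSE180 value was 0.46 (adjusted p = 0.0760), and leaving out the first siCont library gave 0.48, under the size limit. The TE6 value was −0.55 to −0.69 with adjusted p of 0.0593 to 0.128 without any 1 of the siCont or siTP63 libraries. In KYSE150 siTP63 the libraries overlapped (−0.30, adjusted p = 0.640).

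CDKN1B fell in KYSE150 BRDT-OE. It read 1096, 1082 and 1062 in cont and 589, 541 and 584 in BRDT-OE, 1.89-fold lower (log2 fold change −0.92 ± 0.07, adjusted p = 9.67e-06). In KYSE180 siBRDT it was lower as well, at 821, 886 and 780 against 1028, 990 and 999, but by less than the size limit (−0.28 ± 0.07, adjusted p = 0.00276). In TE6 siBRDT it read 467 and 290, around the controls (−0.27, adjusted p = 0.243).

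CDKN2B, which encodes p15 (chr9:22002903-22009305), was found in KYSE150 alone. It had 0 reads in each of the 10 KYSE180 libraries and 1 read in 1 of 6 TE6 libraries. In the libraries of these lines a count of 0 allows up to 3 reads or 0.173 to 0.396 RPM (reads scaled to the library total), for counting error only. In KYSE150 it had 112 to 548 reads per library.

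In KYSE150 BRDT-OE CDKN2B fell 2.56-fold. It read 495, 461 and 398 in cont and 183, 186 and 157 in BRDT-OE, with no overlap (log2 fold change −1.36 ± 0.11, adjusted p = 1.28e-05). In KYSE150 siTP63 it read 172 and 187 in siCont and 401 and 281 in siTP63, higher in both (0.90 ± 0.26, adjusted p = 0.173). BRDT-OE libraries thus had higher CCND1, CCNE1, CCNE2 and CDK6 and lower CDKN1B and CDKN2B, and the differences of CCND3 (0.45) and CDK4 (0.37) were under the size limit. All of these 6 calls were kept in each alternative that was run.

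Whether a perturbation acted unequally between lines was tested by a limma contrast of the fold changes, with no size limit. Of the 10 genes, those tested in both comparisons were counted. The background shares between lines are over all 13931 genes with a mean of at least 10 over the 26 libraries, without that restriction. For siBRDT, 2 of 8 genes differed between KYSE180 and TE6 (background 22.9%). CDKN1A was lower by 1.34 ± 0.19 on the log2 scale in KYSE180 than in TE6 (adjusted p = 8.90e-05). CDK6 differed by 0.68 ± 0.22, with the fall in TE6 (adjusted p = 0.0331), and this was lost in 7 of 10 fits without 1 library.

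For siTP63, 5 of 8 genes differed between KYSE180 and TE6 (background 49.4%). CDK4 (−1.22 ± 0.17, adjusted p = 1.94e-05), CCNE1 (−1.13 ± 0.21, adjusted p = 2.27e-04) and CCND3 (−0.42 ± 0.15, adjusted p = 0.0216) were lower in KYSE180 relative to TE6. CDK6 (1.11 ± 0.25, adjusted p = 9.83e-04) and CDKN1B (1.14 ± 0.25, adjusted p = 0.00101) were lower in TE6. CCNE2 differed by 1.32 ± 0.58 and was not called (adjusted p = 0.0625). With library weights by table, a setting added after seeing the data, its adjusted p was 0.00498. With equal library totals the CCND3 difference was 0.11 and reversed in sign, and once the length and GC trend was removed the CDK6 difference was 0.32 and not called. For CCND1, with fold changes of 0.00 and 0.01, the difference was −0.01 with a 95% interval of −0.35 to 0.34.

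Against KYSE150, 5 of 8 genes differed from KYSE180 (background 29.2%) and 2 of 9 from TE6 (background 22.0%). In simulated data this fit, which shares 1 spread over all libraries, called 381 and 390 unchanged genes in these contrasts, and weights by table lowered that to 16 and 15. With the weights, CCND3, CCNE1 and CDK4 still fell more in KYSE180 than in KYSE150 (adjusted p = 0.0354, 0.0296 and 0.0457), whereas CCNE2 (0.0533) and CDKN1B (0.0885) were not called. These differences also depend on the scaling. With equal library totals the median of all genes was 0.53 in KYSE180 siTP63 and 0.10 in KYSE150 siTP63. That unequal shift makes the differences of CCND3, CCNE1 and CDK4 smaller in size and those of CCNE2 and CDKN1B larger. The weights were not run together with that scaling. Neither CCND2 (2.23, adjusted p = 0.269) nor CDK4 (0.51, adjusted p = 0.197) differed between TE6 and KYSE150 with the weights.

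The TE6 libraries allowed siTP63 and siBRDT to be compared directly, and 3 of 9 genes differed (background 39.2%). CDK6 was lower in siTP63 by 1.32 ± 0.14 (adjusted p = 1.93e-05) and CCND3 by 0.50 ± 0.12 (adjusted p = 0.00457). CCNE1 was lower by 0.40 ± 0.14 (adjusted p = 0.0432), and that call was lost in 4 alternatives, among them DESeq2 (adjusted p = 0.126). Since both knockdowns share their siCont libraries, their separate fold changes are not set against each other.

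Genes up- and downstream of the G1 kinases were taken from 4 lists of 12 genes. Among S phase genes driven by E2F (CCNA2, CDC6, CDT1, MCM2, MCM3, MCM5, MCM6, PCNA, RRM2, TYMS, TK1 and CDC45), all 12 fell in KYSE180 siTP63, with a median log2 fold change of −1.22 beside 0.00 over all genes, where 25.7% of genes fell. With equal library totals 8 of the 12 fell and the median was −0.70. In TE6 siTP63 8 of 12 fell (median −0.62, 20.6% of all genes fell). In KYSE150 siTP63 limma called 0 of 12, while DESeq2 called 6, all lower. The median there was −0.92, and 10 of 12 were lower at an unadjusted p under 0.05, as were 1125 of all 12335 genes. In KYSE150 BRDT-OE 2 of 12 rose (median 0.32, 10.5% of all genes rose), or 1 with equal library totals, led by RRM2, a subunit of ribonucleotide reductase, with a mean of 3492 ± 389 in cont and 7865 ± 487 in BRDT-OE (SD, n = 3, difference 1.18 on the log2 scale).

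CDC45, a subunit of the active replicative helicase, had the largest fall of this list in KYSE180 siTP63, with 1386 ± 170 in siCont and 390.4 ± 17.3 in siTP63 (SD, n = 2, −1.82). CCNA2, the S phase cyclin, had it in TE6 siTP63, with 1728 ± 84.6 in siCont and 435 ± 66.9 in siTP63. Under siBRDT 4 of 12 fell and 0 rose in KYSE180, led by TK1 (−0.92), where 15.8% of all genes fell. In TE6 siBRDT 2 fell and 1 rose, beside 18.1% and 15.6% of all genes, with CCNA2 down by 1.20 and CDT1 up by 0.59. The number that rose in TE6 was 4 with upper-quartile scaling and 0 with equal library totals.

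Of the RB and E2F genes, E2F1, an activator of G1/S genes, rose under siBRDT in KYSE180 (438 ± 14.3 to 1118 ± 25.1, SD, n = 3, log2 fold change 1.35) and in TE6 (693 ± 32.8 to 1197 ± 25.9, n = 2, 0.79). RBL2, a pocket protein of quiescent cells, fell in both (−0.67 and −1.28) and in KYSE150 BRDT-OE (−0.91), and rose in KYSE180 siTP63 (1.17). RB1 itself fell in TE6 siTP63, from 346 ± 47.3 to 112 ± 15.6 (−1.62). RBL1 fell by 0.69 in KYSE180 siTP63, and E2F7, a repressor, rose by 0.89 in BRDT-OE. By count, 2 rose and 1 fell of 12 in KYSE180 siBRDT (14.5% and 15.8% of all genes), 2 and 7 in TE6 siBRDT (15.6% and 18.1%), 2 and 4 in KYSE180 siTP63 (23.6% and 25.7%), 0 and 6 in TE6 siTP63 (18.3% and 20.6%) and 5 and 1 in BRDT-OE (10.5% and 16%). In KYSE150 siTP63 limma, edgeR and DESeq2 each called 0 of this list, and 1 gene, which was lower, had an unadjusted p under 0.05. The list medians were −0.10, −0.60, −0.42, −0.48, −0.43 and 0.45 in turn. In KYSE180 siTP63 the median was 0.11, with 5 rising and 0 falling, once libraries were set to equal totals.

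Among other regulators of the transition, CDKN1C (p57) rose under siTP63 in KYSE180 (154 ± 4.30 to 367 ± 63.1, n = 2) and in TE6 (87.8 ± 6.12 to 357 ± 31.4, n = 2, 2.01). CKS1B, a CDK subunit, fell by 1.77 in KYSE180 siTP63 and CDK2 by 1.38 in TE6 siTP63. FBXW7, which targets cyclin E for destruction, fell by 1.17 and SKP2, which targets p27, rose by 0.59 in KYSE180 siBRDT. CDC25A, the phosphatase that activates CDK2, fell by 0.92 in TE6 siBRDT and rose by 0.89 in BRDT-OE, where CDKN2D (p19) fell by 1.43. Of 12 genes tested, 1 rose and 3 fell in KYSE180 siBRDT, 0 and 1 in TE6 siBRDT, 1 and 6 in KYSE180 siTP63 and 1 and 4 in TE6 siTP63. Of 11 tested in BRDT-OE 1 rose and 1 fell. In KYSE150 siTP63 limma called 0 of 11 and DESeq2 called 1, which was lower, and 3 had an unadjusted p under 0.05. These counts stand beside the same shares of all genes as those of the RB and E2F list. With equal library totals 2 rose and 3 fell in KYSE180 siTP63, with a median of −0.05. The other medians, in the order of the RB and E2F list, were −0.11, −0.05, −0.57, −0.15, −0.24 and −0.20.

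For p53 targets other than CDKN1A, 11 of 12 genes were tested in every comparison, and the shares of all genes called in each direction are those given with the RB and E2F list. In KYSE180 siBRDT 0 rose and 2 fell (median −0.43), led by RRM2B (644 ± 54.1 to 299 ± 17.6, n = 3, −1.10). In TE6 siBRDT 2 rose, led by FDXR (0.83), and 2 fell, led by RRM2B (−1.87), with a median of 0.01. In KYSE180 siTP63 2 rose, led by BBC3 (0.88), and 5 fell, led by FDXR (−1.98), with a median of −0.38. With equal library totals 5 rose and 1 fell there, and the median was 0.14. In TE6 siTP63 3 rose, led by TP53I3 (1.65), and 5 fell, led by RRM2B (−1.10), with a median of −0.44. In KYSE150 siTP63 limma called 0 and DESeq2 called 1, which was lower, 3 had an unadjusted p under 0.05, and the median was −0.29. In BRDT-OE 2 rose, led by TP53I3 (0.76), and 3 fell, led by BBC3 (−1.85), with a median of −0.13.

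**Figure D4:**
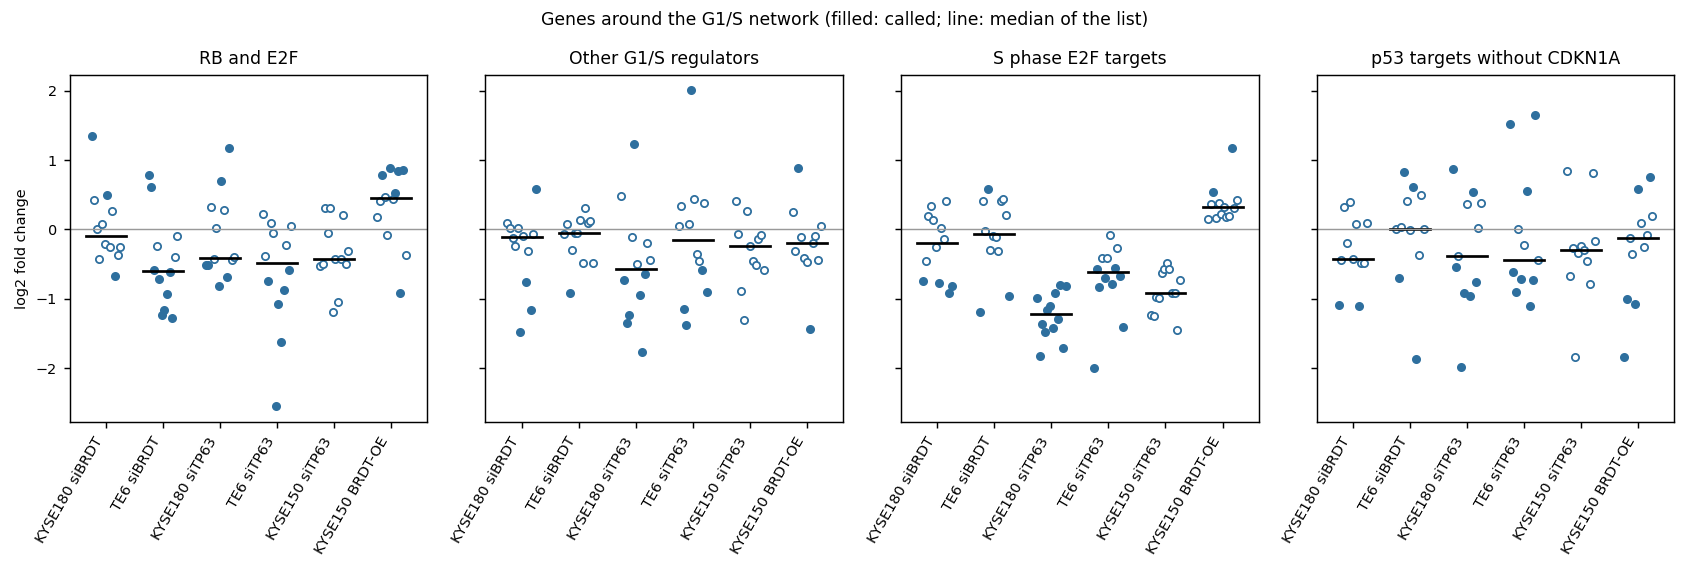
Log2 fold change (y axis) of every tested gene of 4 lists (panels) in the 6 comparisons (x axis), with filled points for called genes, open points for the others and a line at the median of the list. All 12 S phase genes are filled and below 0 in KYSE180 siTP63, and the same list lies above 0 in KYSE150 BRDT-OE.

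The genes with the pattern most like that of a G1 gene were sought by Pearson correlation of log2 values, as deviations from the controls of the same table, over 26 libraries and 11337 genes, as a description. Libraries of a table share their controls and depth. For CCND1 the closest were BRDT itself (r = 0.97), ZNF703 (0.96) and NR2F2 (0.92), which over the 20 libraries outside the BRDT-OE experiment had r = 0.81, 0.75 and 0.70. These 20 include KYSE150 siTP63, where BRDT was low and scattered, at 34.6 ± 37.2 in siCont and 5.32 ± 7.53 in siTP63 (SD, n = 2 each). The part of those libraries in r = 0.81 was not tested. For CDKN1A, whose only call in the main fits was in KYSE180 siBRDT (−1.32), the closest were FAM114A1, UCA1 and PDIA3 (0.92 each). Over the same 20 libraries, which keep that comparison, they had 0.96, 0.95 and 0.93. For CDKN2B, whose deviations are at or near 0 outside KYSE150, the closest were BCAS3, RNF112 and CCL5 (0.91 each), with 0.70, 0.68 and 0.76 over the 20 libraries.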

How the data were processed

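RNA-seq libraries were prepared with a kit that does not mark strand (TruSeq v2) and, per the submitters' processing notes, handled with STAR 2.6.0, HTSeq 0.11.2 and DESeq2 1.24.0 on hg38. The strand setting of the counting and the annotation are not given in the sources used here. The deposited values are a normalised signal per gene, read counts divided by the DESeq2 size factors of the authors, with 5 tables normalised separately. All values came back as whole reads within 0.01 reads, and these counts gave depth, RPKM (GENCODE transcript lengths, MANE Select where present, for 87.4% of symbols) and the count tests. No column of per-sample values was left unused (0). The 10 genes, the lists and the tests were chosen with earlier results of these data known.

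Differential expression was tested with limma 3.58.1 (lmFit, eBayes with trend, R 4.3.3) on log2(value + 1) for genes with a mean of at least 10, within each table, with the 3 TE6 groups in 1 fit, and Benjamini-Hochberg adjustment over all genes tested. A log2 fold change on this scale understates changes of low genes. Contrasts between lines were fitted on all 26 libraries with 1 term per group. Besides the 10 genes, BRDT and TP63, the text names, per list and comparison, the top riser and top faller among called genes averaging at least 100, and the 3 genes correlating best with CCND1, CDKN1A and CDKN2B. The alternatives tried were upper-quartile scaling, no size limit, a smaller pseudocount (0.1), keeping low genes, the count tests of edgeR 4.0.16 and DESeq2 1.42.0, a replicate block, removal of a length and GC trend (spline with 4 degrees of freedom), 2 TE6 groups only and leaving out each library. Equal library totals, library weights by table and a crossed block were added after seeing the data. Scripts were tested on simulated data with 200 changed genes. Figures were drawn with matplotlib in Python.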

Additional observations from a re-analysis of the deposited data

Results flagged for a closer look

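The G1 genes below responded unequally in 2 lines under the same knockdown, by the limma contrast of their log2 fold changes at an adjusted p under 0.05. No group held 4 or more libraries, so that single libraries were not screened for standing apart from their group. Under siBRDT, KYSE180 minus TE6, the differences were 0.68 for CDK6 and −1.34 for CDKN1A. Under siTP63, KYSE180 minus TE6, they were −0.42 for CCND3, −1.13 for CCNE1, −1.22 for CDK4, 1.11 for CDK6 and 1.14 for CDKN1B. Under siTP63, KYSE180 minus KYSE150, they were −0.69 for CCND3, −1.09 for CCNE1, 1.61 for CCNE2, −0.70 for CDK4 and 0.81 for CDKN1B. Under siTP63, TE6 minus KYSE150, they were 2.23 for CCND2 and 0.51 for CDK4. With library weights by table the adjusted p was over 0.05 for CCNE2 and CDKN1B in the contrast with KYSE180 and for both genes in that with TE6. The same weights brought CCNE2 under 0.05 between KYSE180 and TE6 (difference 1.32, limma adjusted p = 0.00498). Equal library totals make the differences of CCND3, CCNE1 and CDK4 between KYSE180 and KYSE150 smaller in size. Leaving out 1 library at a time moved the CCNE2 difference between KYSE180 and KYSE150 from 0.60 to 2.63 and that of CDKN1B from 0.48 to 1.15, with both calls lost in some of these fits, among them those without the second siCont library of KYSE150 (adjusted p = 0.342 for CCNE2 and 0.104 for CDKN1B). The siTP63 groups of these lines also differ in the TP63 left, with log2 fold changes of −1.70 in KYSE180, −4.45 in TE6 and −2.34 in KYSE150, and its part in the differences was not tested.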

How the results depend on the processing

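Of 1027 values of single genes under alternative settings, 888 kept their direction and their side of the threshold, 75 lost a call, 28 gained one and 36 reversed. Counts of called genes that moved by over 1.5 times are as follows. Without the size limit 4 genes were called in KYSE180 siBRDT. In TE6 siBRDT 0 were called with upper-quartile scaling, with the length and GC trend removed, in edgeR and in DESeq2. With that trend removed 4 were called in TE6 siTP63 and 4 in KYSE150 siTP63, where DESeq2 called 2. For the contrasts, siBRDT between KYSE180 and TE6 gave 1 gene with no filter, with upper-quartile scaling and with the trend removed, and siTP63 between KYSE180 and TE6 gave 3 with the trend removed. Between KYSE180 and KYSE150 siTP63 gave 3 with library weights, and between TE6 and KYSE150 it gave 1 with a pseudocount of 0.1, 0 with no filter, 0 with the weights and 4 with the trend removed. The cause was not tested. Reversed values in KYSE180 siBRDT were CCND3, 0.077 with equal totals and 0.0057 in edgeR, and CDK4, 0.014 with equal totals. In TE6 siBRDT they were CCND1 0.041, CCND3 −0.35, CDK4 −0.15 and CDKN1A −0.26 with the trend removed, and CCND3 −0.10 and CDKN1A −0.081 with equal totals. In KYSE180 siTP63 CCND1 was −0.18 with the trend removed and −0.0021 in DESeq2. In TE6 siTP63 CCNE1 was 0.023 and CDK4 0.015 with upper-quartile scaling, and CCNE2 was 0.12 and CDKN1A −0.11 with the trend removed. The CCND3 contrast of siTP63 between KYSE180 and TE6 was 0.11 with equal totals and 0.16 with the trend removed. Equal totals moved the calls over all genes in KYSE180 siTP63 from 3292 up and 3577 down to 6781 and 1451, in KYSE180 siBRDT from 1972 and 2143 to 2515 and 1697, in TE6 siBRDT from 2074 and 2419 to 1571 and 3122, and in BRDT-OE to 792 and 2685. Upper-quartile scaling gave 2638 and 1863 in TE6 siBRDT, and 2928 and 2298 in TE6 siTP63, where the values were 2442 and 2742. Leaving out 1 library at a time gave 0 to 2 called genes in TE6 siBRDT, 5 to 6 in KYSE180 siTP63, 1 to 3 in TE6 siTP63, 0 to 1 in KYSE150 siTP63 and 6 to 7 in BRDT-OE. For the contrasts it gave 1 to 2 for siBRDT, and for siTP63 4 to 5 (KYSE180 and TE6), 3 to 5 (KYSE180 and KYSE150), 0 to 4 (TE6 and KYSE150) and 1 to 4 (TE6 siTP63 and siBRDT). The same fits gave CCND3 −0.039 to 0.025 in KYSE180 siBRDT, and in TE6 siBRDT CCND3 −0.090 to 0.098, CDKN1A −0.080 to 0.12 and CDKN1B −0.62 to 0.068. They gave CCND1 −0.22 to 0.23 and CDKN1A −0.10 to 0.39 in KYSE180 siTP63, and CCND1 −0.027 to 0.049 in TE6 siTP63. In KYSE150 siTP63 CCNE1 was −0.30 to 0.086, CCNE2 −1.49 to 0.54, CDKN1A −0.26 to 0.012 and CDKN1B −0.63 to 0.034, and in BRDT-OE CCND2 was −0.054 to 0.015. CDK6 in TE6 siBRDT lost its call without the second siCont library (−0.44) or the second siBRDT library (−0.34), and in KYSE150 siTP63 it was called without either siTP63 library (−1.18 and −1.21). Where a group was left with 1 library, that library was assumed to vary like the others.

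Replicate numbers are shared between groups but were not taken as a pairing. Deviations of same-numbered libraries correlated at 0.15, 0.0047 and 0.18 in KYSE180 siBRDT, at −0.084 in TE6 siBRDT, 0.047 in KYSE180 siTP63, 0.028 in TE6 siTP63 and −0.70 in KYSE150 siTP63, and at 0.015, 0.098 and 0.037 in BRDT-OE, where each library correlated best with its own number. With the replicate block the contrasts of siTP63 gave 3 genes between KYSE180 and KYSE150 and 0 between TE6 and KYSE150. In KYSE150 siTP63 the deviations of libraries with unlike numbers correlated at 0.70, which mirrors the −0.70 because each group held 2 libraries. With crossed numbers in KYSE150 siTP63, 1626 genes rose and 1774 fell, 4 of the 10 genes among them.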
